A study of Rattus norvegicus with 36 samples.

Results

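MicroRNAs best known from epithelial cells, namely miR-203a-3p, miR-203b-3p, miR-205, miR-141-3p and miR-182, were followed through small RNA libraries of the rat aorta. They were picked by name, 5 of the 835 microRNA names in the deposited table, and all 5 passed the filter on low values that left 484 names for testing. No member passed the test in any comparison of 2 groups after correction for multiple testing. The pair miR-203a-3p and miR-203b-3p varied together from animal to animal, with up to 25.3 nRPM (normalized reads per mega reads) of miR-203b-3p, and both fell on high salt when the 3 strains were averaged, a comparison added after the values were seen.

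The libraries came from thoracic descending aortas of male Dahl salt-sensitive (SS) rats and of congenic SS rats with Brown Norway sequence on chromosome 2. High-salt animals (4% NaCl) and normal-salt animals of each strain started their diet at 4 to 6 weeks of age and were sampled at 12 to 13 weeks. For the normal diet the salt content was not given in the sources used here. Groups analysed were SS on high salt (5 libraries), SS on normal salt (5), S2Ba, which carries the distal portion of the Brown Norway chromosome, on high salt (5) and normal salt (5), and S2Bb, which carries the middle segment, on high salt (6) and normal salt (6). All animals share the SS background outside the transferred segment. None of the members is encoded on chromosome 2 in the RefSeq annotation. Each library is 1 animal by its number in the sample titles, and whether adventitia and surrounding fat were stripped from the vessel was not given in the sources used here.

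MicroRNAs are short RNAs that pair with messenger RNAs mainly through a seed near their 5′ end and lower their output. miR-203 is abundant in skin and other stratified epithelia, where it restrains the stem cell factor p63. miR-205 is enriched in basal layers of such epithelia. miR-141 belongs to the miR-200 family, which keeps cells epithelial by repressing ZEB1 and ZEB2. miR-182 is made from a cluster with miR-183 and miR-96 that is prominent in sensory epithelia. Vascular smooth muscle, the main cell type of the aortic wall, is marked by miR-143 and miR-145.

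The mature sequences are shown because the members fall into pairs and families by sequence, and because miR-203b-3p lies opposite miR-203a. They were read from RefSeq (rat build GRCr8), where 5 of 5 members were matched by name, and run 5′ to 3′ with the seed (bases 2 to 8) in capitals.
miR-203a-3p: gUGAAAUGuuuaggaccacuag
miR-203b-3p: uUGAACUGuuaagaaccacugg
miR-203a-5p: aGUGGUUCuuaacaguucaac
miR-205: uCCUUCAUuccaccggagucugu
miR-141-3p: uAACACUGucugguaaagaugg
miR-200c-3p: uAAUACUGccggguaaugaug
miR-182: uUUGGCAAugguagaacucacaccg
miR-96-5p: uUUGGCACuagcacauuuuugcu

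miR-203a-3p lies at chr6:137020756-137020777 on the plus strand, in the hairpin of the gene Mir203. miR-203b-3p lies at chr6:137020716-137020737 on the minus strand, in the gene Mir3545. It sits opposite miR-203a-5p at chr6:137020718-137020738, and over the 20 shared positions the sequences are reverse complements at all 20. The seeds of miR-203a-3p and miR-203b-3p are alike at 6 of 7 positions. The longest unbroken run that the mature sequences share is 6 bases and lies outside the seed, and other matches outside the seed were not counted. miR-205 lies at chr13:107564588-107564610, on the minus strand. miR-141-3p lies at chr4:159209540-159209561, also on the minus strand, and its start is 429 bases from that of miR-200c-3p. Their seeds are alike at 6 of 7 positions. miR-182 lies at chr4:59752249-59752273 on the minus strand, 3857 bases from the start of miR-183-5p, and its seed is alike with that of miR-96-5p at 6 of 7 positions. No seed is shared in full among the sequences shown. Sequences of miR-200a-3p, miR-200b-3p and miR-429 were not found in the annotation used, so their seeds were not compared with that of miR-141-3p.

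The labels describe 36 samples in 6 groups of 6, of which 34 had a column. On high salt, replicate 2 of S2Ba and replicate 3 of SS were not analysed here. On normal salt, replicate 4 of S2Ba and replicate 1 of SS held identical values for 835 of 835 names, so the label of 1 of them is wrong, and both were left out. That column held 11.1 nRPM of miR-203a-3p, 3.01 of miR-203b-3p, 20.2 of miR-205, 1.22 of miR-141-3p and 8.70 of miR-182, within the range of the other libraries for each. The 32 libraries analysed had 2.31 to 42.4 M reads (median 19.4), M standing for mega, and SS high-salt replicate 2 was the shallowest at 2.31 M. In SS and S2Ba the animal numbers of normal-salt rats all lie below those of high-salt rats, so an effect of that order cannot be told apart from diet there.

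The members covered a wide range of levels. Over the 32 libraries miR-205 averaged 24.4 nRPM (range 8.02 to 74.0), and it ranked 145 of the 835 names. miR-203a-3p averaged 11.3 nRPM (5.65 to 35.4), miR-182 9.37 nRPM (4.82 to 19.8), miR-203b-3p 4.85 nRPM (0.961 to 25.3) and miR-141-3p 1.45 nRPM (0.543 to 2.83). The ranges of neighbours in this order overlap, and miR-203a-3p and miR-182 lie closest. The mature microRNAs are of nearly equal length, 22 to 25 bases, so no length correction was made. Whether the libraries captured different microRNAs equally well was not tested, which limits comparisons of level between them. In these bulk libraries fewer epithelial cells and less microRNA per cell cannot be told apart.

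The close relatives of miR-141-3p and miR-182 had far fewer reads than the members themselves. Of the 5 members of the miR-200 family, which all have a row, miR-141-3p was the most abundant, and it was the only member that passed the filter. miR-200a-3p averaged 0.302 nRPM, miR-200b-3p 0.274, miR-429 0.188 and miR-200c-3p 0.113 nRPM, and they were at 0 reads in 3, 6, 7 and 7 of the 32 libraries. Reads recovered from the deposited signal summed to 888 for miR-141-3p and 69 for miR-200c-3p, its neighbour on chromosome 4, a ratio of 12.9. In the same way miR-182 had 5707 reads against 765 for miR-183-5p and 93 for miR-96-5p, although these are made from 1 cluster. The ratio of miR-182 to miR-183-5p ran from 3.46 to 54.8 across libraries, with a median of 6.59, and its highest value was in SS normal-salt replicate 2. In that library miR-183-5p stood at its lowest, 0.362 nRPM, where 3 reads amount to 0.272 nRPM, so this ratio rests on a few reads.

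Within groups no relation between miR-182 or miR-141-3p and its relatives passed the test over all libraries. miR-183-5p comes from the cluster of miR-182 and miR-200c-3p from that of miR-141, while miR-200a-3p is a family member made from another cluster. Deviations from the group mean of log2(nRPM + 1) gave r = 0.24 and rho = 0.22 for miR-182 with miR-183-5p over 32 libraries (two-sided permutation test within groups, adjusted p = 0.303 and 0.314 over 3 relations). For miR-141-3p the values were r = 0.27 and rho = 0.27 with miR-200c-3p, and r = 0.33 and rho = 0.24 with miR-200a-3p, and the permutation p adjusted over the 3 relations was again 0.303 for r and 0.314 for rho. Without the 2 libraries farthest from the median of the member, r was 0.28, 0.17 and 0.16. By diet, r of miR-182 with miR-183-5p was 0.82 on high salt and -0.41 on normal salt, each over 16 libraries. With miR-141-3p it was -0.03 on high salt and 0.54 on normal salt for miR-200c-3p, and 0.23 on high salt and 0.40 on normal salt for miR-200a-3p, and whether r differs between the diets was not tested. With reads scaled to the library total, miR-182 with miR-183-5p (r = 0.51, adjusted permutation p = 0.0457) and miR-141-3p with miR-200a-3p (r = 0.48, adjusted permutation p = 0.0381) did pass. With means of 0.113 nRPM for miR-200c-3p and 0.302 nRPM for miR-200a-3p, many of these values rest on a few reads.

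**Figure D1:**
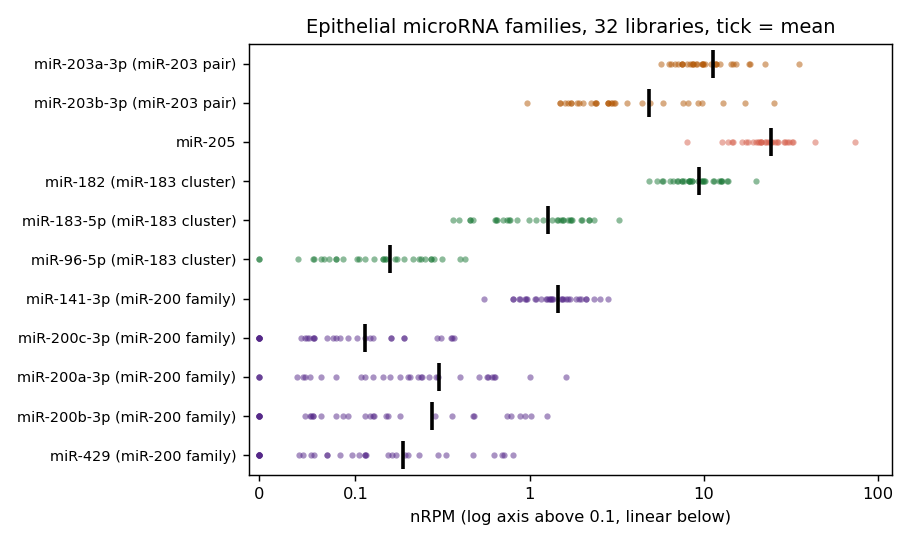
Level of each member and its relatives in nRPM (x axis, log above 0.1 and linear below), 1 point per library over the 32 libraries, with a tick at the mean. miR-205, miR-203a-3p and miR-182 lie near or above 10 nRPM on average, while miR-96-5p and the miR-200 relatives of miR-141-3p lie below 1 nRPM on average.

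Other markers set the scale for these levels. Smooth muscle miR-143-3p averaged 551217 nRPM and miR-145-5p 4171 nRPM, and the endothelial microRNAs averaged 2167 nRPM (miR-126a-5p) and 242 nRPM (miR-126a-3p). Among 8 further epithelial microRNAs, miR-192-5p (465 nRPM) and miR-194-5p (32.4 nRPM), both abundant in gut and kidney, were the highest, whereas the endocrine and neuroendocrine marker miR-375-3p averaged 0.603 nRPM. The members thus lay well below the vascular markers, and the miR-200 family, a defining set of simple epithelia, was close to absent apart from miR-141-3p. The name epithelial therefore describes where these microRNAs are best known, and no epithelial cell type was identified from them here.

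miR-203a-3p was lower on high salt than on normal salt by its mean in each strain, without reaching the threshold in any of them. In SS it stood at 7.44, 5.65, 8.66, 8.00 and 9.85 nRPM on high salt, against 22.3, 9.70, 18.1, 11.02 and 11.8 nRPM on normal salt. Of the high-salt values 4 of 5 lay below the lowest normal-salt value, and the groups touch only at replicate 6 on high salt. The difference in log2(nRPM + 1) was -0.76 ± 0.30 (SE; 95% interval -1.37 to -0.15; limma, adjusted p = 0.195).

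In S2Ba miR-203a-3p stood at 11.6, 6.30, 9.93, 6.81 and 7.13 nRPM on high salt, against 35.4, 6.45, 8.33, 15.4 and 10.1 nRPM on normal salt. Replicate 1 on normal salt, at 35.4 nRPM, was the highest library of all, and the rest of the groups overlap. That library also stood apart in markers of other cells, with the highest sums of the 32 for the endothelial markers (4767 nRPM), the fat markers (2305 nRPM) and the miR-200 family without miR-141-3p (3.58 nRPM). Most of the endothelial sum was miR-126a-5p (4484 nRPM), and most of the fat sum was miR-378a-3p (2158 nRPM). The smooth muscle markers of that library summed to 339339 nRPM, and only SS high-salt replicate 2 was lower. The part of these markers in its miR-203 values was not tested. The difference was -0.57 (95% interval -1.18 to 0.04; limma, adjusted p = 0.517). In S2Bb the lowest, median and highest values were 7.49, 9.07 and 14.8 nRPM on high salt and 7.47, 12.0 and 18.5 nRPM on normal salt. These groups overlap throughout, and the difference was -0.26 (95% interval -0.82 to 0.29; limma, adjusted p = 0.711).

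miR-203b-3p, made from the opposite strand, showed the same order with a larger spread. In SS it stood at 1.59, 2.82, 1.49, 1.74 and 2.83 nRPM on high salt, against 17.2, 2.26, 12.9, 2.39 and 7.58 nRPM on normal salt. Normal-salt replicates 2, 4 and 6 were high, and replicates 3 and 5 lay among the high-salt values. The means were 2.09 ± 0.674 nRPM on high salt and 8.48 ± 6.57 nRPM on normal salt (SD, n = 5 each), with a log2 difference of -1.31 ± 0.48 (SE; 95% interval -2.29 to -0.32; limma, adjusted p = 0.182).

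In S2Ba miR-203b-3p stood at 2.98, 2.38, 3.597, 1.73 and 3.10 nRPM on high salt, against 25.3, 1.48, 2.83, 9.22 and 2.92 nRPM on normal salt. Here only replicates 1 and 5 on normal salt lay above the high-salt range, and the medians, 2.98 nRPM on high salt and 2.92 nRPM on normal salt, were nearly equal. The log2 difference was -0.77 (95% interval -1.76 to 0.22; limma, adjusted p = 0.608). In S2Bb the lowest, median and highest values were 0.961, 1.89 and 5.82 nRPM on high salt and 2.02, 4.66 and 9.70 nRPM on normal salt. Of the high-salt libraries 4 of 6 lay below the lowest normal-salt library, and the log2 difference was -0.87 (95% interval -1.77 to 0.03; limma, adjusted p = 0.334).

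**Figure D2:**
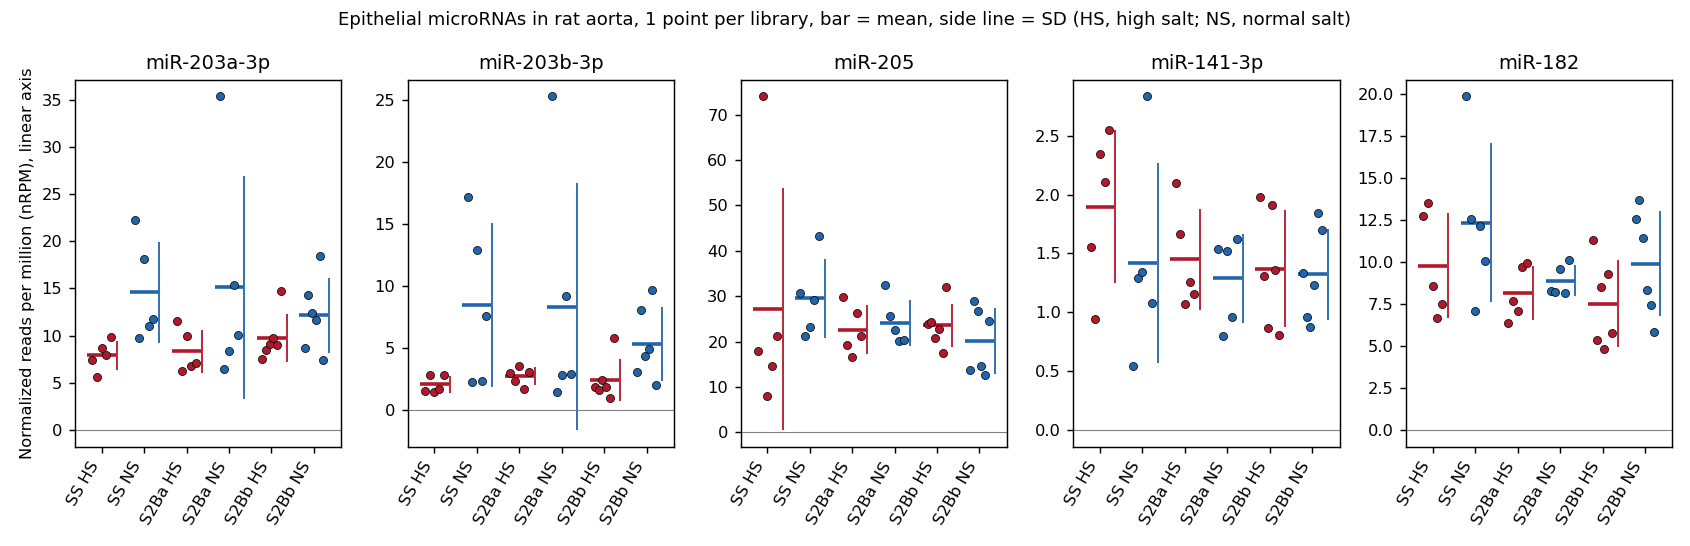
Level of each member in nRPM (y axis, linear, a separate scale per panel) in the 6 groups, 1 point per library, with a bar at the mean and a line of 1 SD to each side of it; HS is high salt and NS normal salt. The high values of miR-203a-3p and miR-203b-3p are in normal-salt libraries, and miR-205 has 1 high point, SS high-salt replicate 2 at 74.0 nRPM.

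Taking the strains as a whole, the miR-203 pair covered a narrower range in the high-salt libraries than in the normal-salt ones. miR-203b-3p ranged from 0.961 to 5.82 nRPM in 16 high-salt libraries and from 1.48 to 25.3 nRPM in 16 normal-salt libraries, and 7 of the 16 normal-salt libraries lay above every high-salt library. miR-203a-3p ranged from 5.65 to 14.8 nRPM on high salt and from 6.45 to 35.4 nRPM on normal salt, and 5 of the 16 normal-salt libraries lay above every high-salt library. The lower ends of the ranges were close together, so the normal-salt libraries differed among themselves in whether they reached the high values. Relative to the mean this did not hold for miR-203b-3p in S2Bb. There the SD was 70.7% of the mean on high salt and 55.3% on normal salt. Whether the spread differs between the diets was not tested.

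A comparison of the diets averaged over the strains was added after these values had been seen, and its p-values are to be read with that in mind. In it miR-203b-3p fell by 0.98 on the log2 scale (SE 0.27; 95% interval -1.54 to -0.43; limma, adjusted p = 0.0152). miR-203a-3p fell by 0.53 (SE 0.17; 95% interval -0.87 to -0.19; limma, adjusted p = 0.0341). The other members did not pass, with log2 differences of -0.25 for miR-182 (95% interval -0.53 to 0.02; limma, adjusted p = 0.216), -0.10 for miR-205 (-0.48 to 0.28; adjusted p = 0.779) and 0.14 for miR-141-3p (-0.10 to 0.38; adjusted p = 0.483). Thus 2 of 5 members were called, against 13.4% of all microRNAs tested (65 of 484, 37 higher and 28 lower), and the members' median log2 difference was -0.25, against -0.02 over all tested. The 2 called members lie on opposite strands of 1 locus and varied together within groups (r = 0.88), so they are not independent calls. The call on miR-203a-3p was lost without any 1 of 6 libraries, with adjusted p from 0.0541 to 0.0627. These are S2Ba high-salt replicate 3, S2Ba normal-salt replicate 5, S2Bb high-salt replicate 1, S2Bb normal-salt replicate 5, and SS normal-salt replicates 2 and 4. It was also lost with no filter on low values (adjusted p = 0.0630) and with reads scaled to the library total (adjusted p = 0.0975), and that scaling turned the split over all microRNAs into 47 higher of 60 called.

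**Figure D3:**
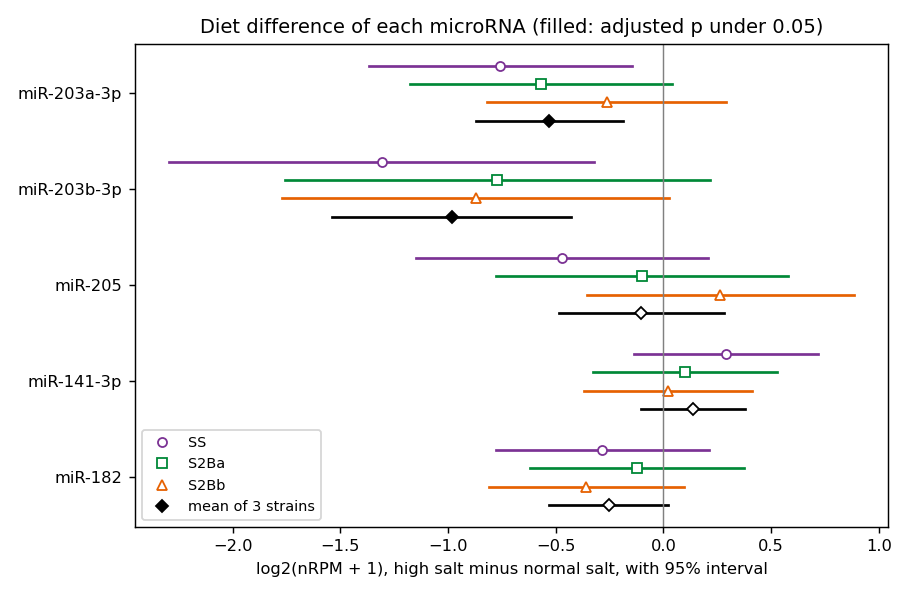
Difference in log2(nRPM + 1), high salt minus normal salt (x axis), for each member in each strain and averaged over the strains, with 95% intervals; filled points have an adjusted p under 0.05. Only the averaged differences of miR-203a-3p (-0.53) and miR-203b-3p (-0.98) are filled, and all intervals of miR-205 and miR-141-3p span 0.

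The miR-203 pair varied together across animals. Deviations from the group means gave r = 0.88 and rho = 0.80 over 32 libraries (permutation test within groups, p = 1e-05, the smallest that 100000 permutations can give, adjusted p = 0.0001 over 10 pairs). Without S2Ba normal-salt replicates 1 and 2, the libraries farthest from the median, r was 0.81, and without the 2 shallowest libraries it was 0.93. Within the diets r was 0.54 in the 16 high-salt libraries and 0.95 in the 16 normal-salt libraries. The other 9 pairs of members had r between -0.39 and 0.22 and did not pass, the lowest adjusted permutation p being 0.256. Libraries with high miR-203 were not detectably high in miR-205 (r = -0.01 with miR-203a-3p and 0.22 with miR-203b-3p), although both are known from stratified epithelium.

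The level of miR-203b-3p relative to that of miR-203a-3p also varied between libraries. It amounted to 10.6% to 50% of the miR-203a-3p level on high salt (median 25.6%, 16 libraries) and to 21.7% to 77.2% on normal salt (median 38.9%, 16 libraries). It reached 50% in 1 of 16 high-salt libraries, SS replicate 2 with 9 against 18 reads, and in 7 of 16 normal-salt libraries. The arm opposite miR-203b-3p, miR-203a-5p, had 10 reads in all, in 7 of 32 libraries, against 2664 reads of miR-203b-3p and 6603 of miR-203a-3p. How reads were assigned to strands was not given in the sources used here.

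**Figure D4:**
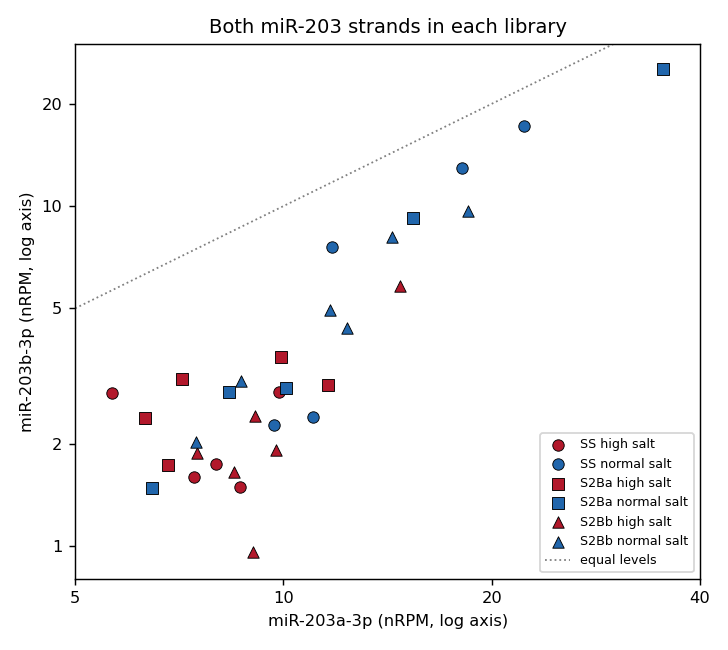
miR-203b-3p (y axis) against miR-203a-3p (x axis) in nRPM, both on log axes, 1 point per library, coloured by diet and shaped by strain, with a dotted line where the levels are equal. The points run along a steep band below the line, and the 7 libraries above 5.82 nRPM of miR-203b-3p are all normal-salt libraries.

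The microRNAs most like each member in pattern were ranked by Pearson's r of log2(nRPM + 1) over the 32 libraries, as a description with no test. Apart from each other, miR-203a-3p was closest to miR-708-3p (0.81) and miR-708-5p (0.72), and miR-203b-3p to miR-378b (0.77) and miR-708-5p (0.74). miR-708-5p and miR-708-3p are rare here, with means of 0.851 and 1.595 nRPM. miR-205 was closest to miR-139-5p (0.74), miR-181b-5p (0.69) and miR-181a-5p (0.69). miR-141-3p was closest to miR-29c-3p (0.63), miR-16-5p (0.56) and miR-101a-5p (0.53), and miR-182 to miR-n74 (0.60), miR-28-3p (0.60) and miR-107-3p (0.59). Over the other 483 microRNAs the median r lay between -0.03 and 0.06 for the members.

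miR-378 is a microRNA of brown fat and muscle, encoded within the coactivator gene Ppargc1b, and it was set beside miR-203 together with the other fat markers. The plan named tests of relations for pairs of members only, and miR-378b already ranked near miR-203b-3p in these same libraries. The p-values of the fat marker relations are to be read with that in mind. Of 7 fat markers 5 had a row, led by miR-378a-3p (1224 nRPM) and miR-365-3p (83.2 nRPM), and none was at 0 in any library. Within groups miR-203b-3p went with miR-378a-3p (r = 0.76, rho = 0.75, permutation p = 5e-05, adjusted p = 0.00075 over 15 relations), and r was 0.59 without S2Ba normal-salt replicate 1 and SS normal-salt replicate 2. miR-203a-3p did so with r = 0.62 and rho = 0.53 (adjusted permutation p = 0.0315 and 0.059). Without S2Ba normal-salt replicates 1 and 2 that r was 0.43 and no longer passed (adjusted permutation p = 0.307). By diet, r with miR-378a-3p was 0.40 on high salt and 0.85 on normal salt for miR-203b-3p, and -0.22 on high salt and 0.85 on normal salt for miR-203a-3p, each over 16 libraries. Whether r differs between the diets was not tested. Of the markers of other tissues, miR-9a-5p had values of a similar size. As a description over the 32 libraries, with no test, r of log2(nRPM + 1) with miR-203a-3p was 0.64 for the neuronal marker miR-9a-5p, 0.58 for miR-378a-3p and 0.42 for the endothelial miR-126a-3p. With miR-203b-3p it was 0.58 for miR-9a-5p, 0.63 for miR-378a-3p and 0.22 for miR-126a-3p. The other neuronal markers tested went the other way, with r of -0.25 (miR-128-3p), -0.14 (miR-138-5p) and -0.07 (miR-338-3p) for miR-203a-3p. With miR-203b-3p their r was -0.29, -0.12 and -0.31 in that order. The other endothelial arm, miR-126a-5p, had r = 0.06 with miR-203a-3p and -0.05 with miR-203b-3p. The 4 Hox cluster microRNAs tested all had positive r. With miR-203a-3p it was 0.31 (miR-10a-5p), 0.40 (miR-10b-5p), 0.33 (miR-196a-5p) and 0.39 (miR-196b-5p). With miR-203b-3p it was 0.23, 0.41, 0.41 and 0.41 in that order. The white blood cell marker miR-150-5p had r = 0.26 and 0.44 with the pair. For the other white blood cell markers r lay between -0.02 and 0.12 with miR-203a-3p and between -0.12 and -0.06 with miR-203b-3p.

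The relations of the other 4 fat markers with the pair did not pass over all libraries, with r between -0.33 and 0.43 and adjusted permutation p from 0.235 upward for r and from 0.221 upward for rho. miR-378a-5p, from the same hairpin as miR-378a-3p, had r = -0.48 on high salt and 0.62 on normal salt with miR-203a-3p, and 0.02 on high salt and 0.60 on normal salt with miR-203b-3p. With total-read scaling its r with miR-203b-3p was 0.50 (permutation p = 0.0134, adjusted p = 0.067). miR-182 had r = 0.06 with miR-378a-3p. The summed level of the 5 fat markers was 1014 to 1851 nRPM on high salt and 877 to 2045 nRPM on normal salt in SS. It was 1020 to 1418 nRPM on high salt and 975 to 2305 nRPM on normal salt in S2Ba, and 1102 to 1778 nRPM on high salt and 1072 to 2053 nRPM on normal salt in S2Bb. None of the 5 passed the averaged diet comparison (0 higher and 0 lower in limma). In the planned diet comparison of S2Bb, limma called 1 of the 5 lower on high salt, where 5.99% of all microRNAs were called. The part of the fat markers in the miR-203 difference was not tested.

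Depth was also set beside the miR-203 values. Within groups r with the log2 read total was -0.10 for miR-203a-3p and -0.31 for miR-203b-3p (adjusted permutation p = 0.644 and 0.0993 over 5 relations, rho = -0.08 and -0.29). Without the 2 shallowest libraries both passed, with r = -0.60 for miR-203a-3p and -0.45 for miR-203b-3p (adjusted permutation p = 0.0171 and 0.0497), as did miR-182 with r = 0.43 (adjusted permutation p = 0.0171). With total-read scaling r was -0.27 for miR-203a-3p and -0.39 for miR-203b-3p (adjusted permutation p = 0.0792 and 0.026). Mean depth was 16.4 M reads on high salt and 14.4 M on normal salt in SS, 17.7 M on high salt and 19.4 M on normal salt in S2Ba, and 20.1 M on high salt and 27.2 M on normal salt in S2Bb. The part of depth in the diet difference was not tested.

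miR-205 did not differ between diets beyond the spread of the libraries. In SS it stood at 17.9, 74.0, 8.02, 14.6 and 21.3 nRPM on high salt, against 30.8, 21.1, 23.2, 29.1 and 43.3 nRPM on normal salt. Replicate 2 on high salt, with 236 reads of miR-205 in the shallowest library, was the highest of all 32, and 3 of the other 4 lay below the normal-salt range. The log2 difference was -0.47 (95% interval -1.15 to 0.21; limma, adjusted p = 0.441), and without that library it was -0.92 (adjusted p = 0.0701). That library also held 7.53 nRPM of miR-375-3p, the highest of all, and its 7 striated muscle microRNAs summed to 1576 nRPM, the highest of all 32 libraries. Nearly all of that sum was miR-133a-3p (1546 nRPM), while the muscle microRNA miR-1-3p did not exceed 0.961 nRPM in any library.

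In S2Ba miR-205 stood at 29.8, 19.2, 16.6, 26.3 and 21.3 nRPM on high salt, against 32.4, 25.6, 22.5, 20.03 and 20.3 nRPM on normal salt. The groups overlap, and the log2 difference was -0.10 (95% interval -0.78 to 0.58; limma, adjusted p = 0.965). In S2Bb the lowest, median and highest values were 17.5, 23.4 and 31.9 nRPM on high salt and 12.7, 19.6 and 28.9 nRPM on normal salt, a log2 difference of 0.26 (95% interval -0.36 to 0.88; limma, adjusted p = 0.745). Over all libraries miR-205 was higher in shallower libraries (r = -0.70, rho = -0.49, adjusted permutation p = 0.079 and 0.0461), a relation that rests on SS high-salt replicate 2 and SS normal-salt replicate 6, since r was -0.13 without them.

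miR-141-3p, the rarest member, is also the least precisely counted, with 3 reads in SS high-salt replicate 2 and 6 in SS normal-salt replicate 2. In SS it stood at 1.55, 0.941, 2.34, 2.11 and 2.55 nRPM on high salt, against 0.543, 1.29, 1.35, 2.83 and 1.08 nRPM on normal salt. The highest and the lowest value of the strain both belong to normal-salt animals, and the log2 difference was 0.29 (95% interval -0.13 to 0.72; limma, adjusted p = 0.451). In S2Ba the values were 2.10, 1.67, 1.07, 1.26 and 1.16 nRPM on high salt and 1.53, 0.799, 1.52, 0.964 and 1.63 nRPM on normal salt, with a difference of 0.10 (limma, adjusted p = 0.947). In S2Bb the range was 0.807 to 1.97 nRPM on high salt and 0.877 to 1.84 nRPM on normal salt, with a difference of 0.02 (95% interval -0.37 to 0.41; limma, adjusted p = 0.968). The groups overlap in each strain.

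miR-182 was lower on high salt by its mean in all 3 strains, by less than the spread of the libraries. In SS it stood at 12.7, 13.5, 8.59, 6.63 and 7.47 nRPM on high salt, against 19.8, 12.5, 7.05, 12.2 and 10.1 nRPM on normal salt. The log2 difference there was -0.28 (95% interval -0.78 to 0.21; limma, adjusted p = 0.528). In S2Ba the values were 6.37, 7.67, 7.09, 9.69 and 9.91 nRPM on high salt, against 8.25, 8.22, 9.60, 8.17 and 10.1 nRPM on normal salt, the narrowest spread of the groups on normal salt. The difference was -0.12 (95% interval -0.62 to 0.37; limma, adjusted p = 0.938). In S2Bb the lowest, median and highest values were 4.82, 7.14 and 11.3 nRPM on high salt and 5.85, 9.88 and 13.7 nRPM on normal salt, with a difference of -0.36 (95% interval -0.81 to 0.09; limma, adjusted p = 0.474).

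Over the 12 planned comparisons limma thus called 0 of 5 members each time. For diet the share called over all microRNAs was 1.03% in SS, 0.826% in S2Ba and 5.99% in S2Bb. At an unadjusted p under 0.05 the members numbered 2 in SS (both of the miR-203 pair, where 18.6% of all microRNAs did the same). They numbered 0 in S2Ba, beside 11.4% of all microRNAs, and 0 in S2Bb, beside 15.9%. edgeR on recovered reads called 0 members in every planned comparison, and DESeq2 called only miR-203b-3p in SS, with a log2 difference of -2.10 (adjusted p = 0.0218). Over its other alternatives the adjusted p of that difference ran from 0.0765 to 0.498.

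The strains did not differ detectably in any member. On normal salt limma called 0 members for S2Ba against SS, S2Bb against SS and S2Bb against S2Ba, where 0.413%, 0.826% and 3.51% of all microRNAs were called. On high salt it called 0 members in the same comparisons, beside 0.207%, 0% and 0%. No member had an unadjusted p under 0.05 in limma in these 6 comparisons, where 9.09% to 16.9% of all microRNAs did. Calls by edgeR and DESeq2 numbered 0 members as well. DESeq2 gave an adjusted p for 1 of the 5 members in S2Bb against SS on high salt, and for 4 of the 5 in the other high-salt comparisons. Of the strain differences, the smallest unadjusted p belonged to miR-205 in S2Bb against SS on normal salt, with 20.2 ± 7.29 nRPM in S2Bb (SD, n = 6) and 29.5 ± 8.69 nRPM in SS (SD, n = 5), a log2 difference of -0.56 (95% interval -1.21 to 0.09; limma, adjusted p = 0.462). On normal salt the members' median log2 difference was -0.25 in S2Ba against SS and -0.28 in S2Bb against SS, beside -0.05 and 0.01 over all microRNAs, and these comparisons share the SS libraries. All 5 fitted differences were negative in both, but some signs rested on single libraries. In S2Ba against SS, leaving out 1 library kept the sign of miR-203a-3p in 7 of 10 cases, of miR-203b-3p in 8 of 10 and of miR-141-3p in 7 of 10, and in S2Bb against SS it kept that of miR-141-3p in 8 of 11. For miR-203b-3p the sign turned without S2Ba replicate 2 (0.08) or SS replicate 2 (0.07). Total-read scaling moved the median of all microRNAs by 0.17 in S2Ba against SS on normal salt and gave positive values there for miR-203a-3p (0.07) and miR-141-3p (0.08).

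The diet response itself did not differ detectably between the strains for any member. For miR-203b-3p the response of S2Ba minus that of SS was 0.54 on the log2 scale (95% interval -0.86 to 1.93; limma, adjusted p = 0.858), that of S2Bb minus SS was 0.44 (-0.90 to 1.77; adjusted p = 0.822), and S2Bb minus S2Ba was -0.10 (-1.44 to 1.23; adjusted p = 0.993). For miR-205 the difference of S2Bb minus SS was 0.74 (95% interval -0.18 to 1.65; limma, adjusted p = 0.612). Limma, edgeR and DESeq2 each called 0 members in these 3 comparisons, although DESeq2 gave an adjusted p for only 4 of the 5 in S2Bb minus SS. For S2Ba minus SS, S2Bb minus SS and S2Bb minus S2Ba, limma called 0%, 0.413% and 0% of all microRNAs. No member had an unadjusted p under 0.05 there, beside 7.44%, 9.5% and 4.13% of all microRNAs in that order. With intervals this wide, differences of more than 1 log2 unit in the response of miR-203b-3p were within what these libraries allow.

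Markers of other tissues in the averaged diet comparison are given here for the lists that were set beside the members. That comparison called 13.4% of all microRNAs tested (65 of 484). Of 5 further epithelial microRNAs tested, miR-449a-5p, a microRNA of ciliated cells, rose by 0.40 (limma, adjusted p = 0.0118) and miR-192-5p fell by 0.46 (limma, adjusted p = 0.00301), 1 in each direction. The muscle marker miR-133b-3p fell by 0.54 (limma, adjusted p = 0.00714) as 1 of 3 striated muscle microRNAs tested. Of 4 neuronal markers tested, miR-138-5p rose by 1.15 (limma, adjusted p = 0.000714) and miR-128-3p by 0.38 (limma, adjusted p = 0.0486). The Hox cluster microRNA miR-10b-5p fell by 0.46 (limma, adjusted p = 0.0102) as 1 of 4 tested. The liver marker miR-122-5p averaged 0.242 nRPM and was not tested. None was called there among the 3 red blood cell, 5 white blood cell, 2 endothelial and 2 smooth muscle markers tested. In the diet comparison of S2Bb limma called 5.99% of all microRNAs. Among them 1 smooth muscle, 1 fat, 1 striated muscle, 1 further epithelial and 1 Hox cluster microRNA were lower on high salt. A white blood cell and a neuronal marker, 1 each, were higher. In SS 1 Hox cluster microRNA was called lower, and in S2Ba 1 further epithelial microRNA higher. Whether any of these tissues had a part in the miR-203 values was not tested.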

How the data were processed

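The authors deposited 1 table with a normalized signal per microRNA and library, given here as normalized reads per mega reads (nRPM). Tools named in the submitters' processing notes are edgeR 3.6.8, STAR 2.3.1, FastQC, R 3.2.3 and bcl2fastq 1.8.4. Their roles, the scaling, the annotation of microRNAs and the genome build were not given in the sources used here. Per the labels' protocols, total RNA was made into TruSeq small RNA libraries, sequenced as single-end reads of 51 bases. Dividing each column of the deposited signal by its smallest step gave whole numbers for 100% of values (tolerance 0.001 of a read up to 1000 reads, and 1e-06 of the value above), taken as reads and depths. No molecular identifiers are named in the labels.

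The filter required 1 nRPM or more in 5 or more libraries. Values were fitted as log2(nRPM + 1), which understates changes of rare microRNAs, with limma 3.58.1 (R 4.3.3, intensity trend, all 6 groups in 1 fit). The plan named limma for normalized values. P-values were Benjamini-Hochberg adjusted over all 484 microRNAs, and a call is an adjusted p under 0.05. Groups were compared in 9 pairs, diet responses in 3 pairs of strains, and the averaged diet comparison was added after values were seen. P-values measure the spread between animals, 1 library each. Relations used deviations from group means and 100000 permutations within groups (scipy 1.17.1). The plan named pairs of members, and relations with relatives, fat markers and depth were added to it. Alternatives were pseudocounts of 0.5 and 0.1, no filter, a filter of 5 nRPM, total-read scaling, edgeR 4.0.16 quasi-likelihood and DESeq2 1.42.0 on recovered reads, sample weights, only the compared groups, the identical column counted as SS or as S2Ba, and leaving out each library. The code was tested on simulated data.

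All members are named, as are the 3 nearest patterns per member. Of the marker lists that bear on a result, the 2 most abundant microRNAs and any called in the averaged diet comparison are named. Marker calls in the diet comparisons of single strains are given as counts. The members and lists were chosen with earlier results of these data known.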

Additional observations from a re-analysis of the deposited data

Results flagged for a closer look

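Within groups of 5 or 6 libraries, 3 values lay far from the others of their group by Dixon's criterion, of 30 groups of values examined (5 members in 6 groups); chance flags about 1 in 20 groups. S2Bb high-salt replicate 6 held 14.8 nRPM of miR-203a-3p, where the next highest library of the group held 9.75 nRPM. The same library held 5.82 nRPM of miR-203b-3p, where the next highest held 2.40 nRPM, so both strands of the miR-203 locus were high in 1 animal. SS high-salt replicate 2, the shallowest library, held 74.0 nRPM of miR-205, where the next highest held 21.3 nRPM.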

How the results depend on the processing

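In the 12 planned comparisons the number of members called stayed at 0 under the alternatives run, except that DESeq2 called 1 in the diet comparison of SS. In the averaged diet comparison, with 2 members called, no filter gave 1, total-read scaling gave 1, and leaving out 1 library gave 1 to 2. miR-203b-3p was called in 43 of 43 alternatives there (log2 differences -1.63 to -0.81, adjusted p 2.67e-05 to 0.0349) and miR-203a-3p in 35 of 43 (adjusted p 0.00218 to 0.0975). Sample weights added miR-182 (-0.34, adjusted p = 0.0418), the only alternative of 43 that called it. No called value changed sign. Among relations, 4 of 40 values for pairs of members moved, 3 of them with total-read scaling, to r = 0.20 (miR-203a-3p with miR-205), 0.12 (miR-203a-3p with miR-141-3p) and 0.07 (miR-203b-3p with miR-182), and 1 without the 2 shallowest libraries, to 0.21 (miR-203a-3p with miR-205). Over all microRNAs the averaged comparison called 65, against 113 with sample weights, and the diet comparison of SS called 5, against 13 with DESeq2 and 0 with total-read scaling. That of S2Bb called 29, against 66 with sample weights and 12 with total-read scaling. The cause of these changes was not tested. No paired analysis was possible because the replicate numbers only order different animals and the labels tie them to no litter, batch or day. Depth limits miR-141-3p most, with as few as 3 reads in a library, and miR-203b-3p in the shallowest library (9 reads).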
